A study of Mus musculus with 24 samples.

Results

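The kappa light chain repertoire of mouse spleen was read from 8 immunoglobulin (BCR) libraries of a series of 24 samples. An entry was kept when its V and J names both began with IGK and its CDR3 translation held letters only. This left 371514 kappa entries of 1154635 entries in the 8 BCR tables. The other samples of the series were RNA-seq libraries and T cell receptor libraries.

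All samples came from spleen (cell type given as splenocyte) of BALB/c mice. The protocol describes injection of CT-26, a BALB/c colon carcinoma line, into the right side of mice aged 8 weeks. Of each kind of library, 4 are titled CT-26 and 4 are titled control. In the treatment field the libraries titled CT-26 are given as healthy controls and the libraries titled control as injected with CT-26 cells. The sets are therefore named by their titles, and no difference below is read as tumour-bearing against healthy. The labels do not say whether the 4 libraries of a set came from separate animals, so p-values measure the spread between libraries, which may be technical. The library kit named for all samples is one sold for mouse T cell receptor alpha and beta chains, and the primers of the BCR libraries are not given in the sources used here.

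A kappa light chain is made when the RAG recombinase joins 1 V segment (IGKV) to 1 joining segment (IGKJ) upstream of the constant gene Igkc. The kappa locus holds many IGKV genes in both orientations. A gene in the same orientation as Igkc joins by deletion of the DNA between, and a gene in the opposite orientation joins by inversion. A kappa allele can rearrange again, joining an IGKV farther out to an IGKJ nearer Igkc, as happens when a B cell replaces its light chain. The junction forms the third complementarity-determining region (CDR3), which lies in the antigen-binding site and in kappa chains carries few added bases.

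The germline ends of the joining segments are shown because the J use below was also read from these bases. Each line gives the stretch of a joining segment that falls inside CDR3, from the mouse reference transcripts of GENCODE release M21, with every base in capitals. IGKJ3 took 0 to 3 reads per library and is not analysed further.
IGKJ1: GTGGACGTTC
IGKJ2: TGTACACGTTC
IGKJ3: AATCACATTC
IGKJ4: ATTCACGTTC
IGKJ5: GCTCACGTTC

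The next 4 CDR3 sequences, all of the segment IGKV8-34, include the sequence behind the largest fall of a called IGKV-IGKJ pair, and the capitals mark the bases past the IGKV8-34 germline. They share every IGKV base and differ only in the joining segment that supplied the end.
IGKV8-34 with the IGKJ1 end: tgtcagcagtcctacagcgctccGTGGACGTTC
IGKV8-34 with the IGKJ2 end: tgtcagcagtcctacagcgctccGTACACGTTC
IGKV8-34 with the IGKJ4 end: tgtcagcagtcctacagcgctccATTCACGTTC
IGKV8-34 with the IGKJ5 end: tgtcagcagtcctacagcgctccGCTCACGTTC

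The germline CDR3 stretches of 8 further IGKV segments that lead the differences are shown in lower case, since no base of them is singled out. The reference is C57BL/6 and the mice were BALB/c, so a base here can differ from the allele sequenced.
IGKV4-86: tgccagcagtggaattatcctctta
IGKV4-91: tgccagcagggtagtagtataccacgca
IGKV8-21: tgcaagcaatcttataatcttcc
IGKV8-30: tgtcagcaatattatagctatcctcc
IGKV6-15: tgtcagcaatataacagctatcctct
IGKV6-20: tgtggacagagttacagctatcctcc
IGKV6-23: tgtcagcaatatagcagctatcctct
IGKV17-121: tgtttgcaaagtgataacttgcctct
The IGKV8-30 stretch and the 3 IGKV6 stretches all hold agctatcct near their end.

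Depth differed between the sets. Kappa reads numbered 292851 to 365368 in the titled CT-26 libraries, against 440274 to 562869 in the titled control libraries. A clonotype was counted as 1 combination of IGKV gene, IGKJ gene and CDR3 nucleotide sequence. There were 35968 to 42782 clonotypes per titled CT-26 library and 49206 to 57843 per titled control library. Kappa took 66.9 to 74.1% of light chain reads in titled CT-26 and 71.8 to 81.0% in titled control. Most entries were thin: 73.6 to 76.3% rested on 1 read, and 53.3 to 56.9% of clonotypes lay 1 base from a sequence with at least 5 times their reads. In the RNA libraries of the same titles, 42.8% of 6408 genes tested differed, 21.2% higher and 21.6% lower in titled CT-26, or 1359 higher and 1384 lower. Without TMM scaling these counts were 1955 higher and 730 lower. In those libraries 11 of 12 B cell markers were lower in titled CT-26, with a summed level of 402 to 787 CPM against 2313 to 3645 CPM. Also there, 6 of 6 T cell markers were lower and 5 of 5 erythroid and 5 of 5 neutrophil markers were higher. Whether these marker differences play a part in the results below was not tested. In bulk spleen, fewer B cells and less RNA per cell cannot be told apart. All kappa values are therefore shares of kappa clonotypes or reads within a library. The library titled control 3 stood apart from the other titled control libraries in several shares, and values without it are given where they change a result.

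The names of the segments were given to each assembled entry, and 1 sequence could carry several names. Within a library 11.5% of the CDR3 sequences, holding 87.9% of reads, appeared under more than 1 combination of names. Reads under the commonest name of their sequence made up 84.4% of the total. For this reason segment use was also read from the bases, IGKV from the first 18 bases of CDR3 and IGKJ from the last 9. The start of CDR3 matched a germline IGKV in 35.8% of clonotypes and 86.5% of reads. Its end matched an IGKJ in 47.1% of clonotypes and 71.7% of reads. The shares of parts, orientations, IGKJ segments and lengths read from the bases are shares of entries with both matches.

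The first comparison asked where in the locus the used IGKV genes lie. Igkc lies on the plus strand at chr6:70703419-70703950 in GRCm39. Of 133 IGKV segments listed, 121 had a position in the annotation, and they held 99.5% of clonotypes. They were divided in order of distance from Igkc into 3 parts of nearly equal gene number, a proximal part of 41 genes (22.3 to 961.4 kb), a middle part of 40 genes (975.1 to 1957.3 kb) and a distal part of 40 genes (1970.8 to 3170.2 kb). In the middle part 36 of the 40 genes lie opposite to Igkc, and in the distal part 31 of 40 lie in the same orientation.

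A larger share of clonotypes used a gene of the middle part, and a smaller share one of the distal part, in the titled CT-26 libraries. The median segment of the middle part was not higher: of 35 tested, 3 were higher, 1 was lower and the median log2 fold change was -0.11. Those 3 were IGKV4-91, with means of 7.54% in titled CT-26 and 3.80% in titled control, IGKV4-86, with 2.35% in titled CT-26 and 1.17% in titled control, and IGKV4-53, with 3.63% in titled CT-26 and 2.53% in titled control. The middle part held 36.5, 35.3, 39.1 and 37.1% of clonotypes in titled CT-26 libraries 1 to 4, against 32.2, 33.1, 25.9 and 32.4% in titled control libraries 1 to 4. Every titled CT-26 library lay above every titled control library, and titled control 3 was lowest by a wide gap. The means were 37.0% ± 1.60 in titled CT-26 and 30.9% ± 3.33 in titled control (SD, n = 4 each), a difference of 6.08 percentage points. The exact permutation test over the 70 assignments of libraries to sets, two-sided, gave the smallest p it allows, 0.0286, or 0.0381 adjusted over 4 locus measures. Without titled control 3 the difference was 4.42 points with an adjusted p of 0.0571, in an exact test over 35 assignments. The adjusted p also passed 0.05 without titled CT-26 1, 3 or 4 (up to 0.0762), with differences of 5.37 to 6.25 points. Sets that do not overlap stay apart with any library left out, and the exact test over 35 assignments allows no p below 0.0286. These adjusted p-values therefore cannot show whether the difference depends on a single library.

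The distal part held 13.1, 11.5, 10.1 and 11.1% of clonotypes in titled CT-26, against 14.9, 13.9, 21.4 and 15.3% in titled control. No value was shared between the ranges, and titled control 3 was again the most extreme. The difference was -4.94 points (exact permutation test, adjusted p = 0.0381). It was -3.29 points without titled control 3, with an adjusted p of 0.0762 in the exact test, and leaving out any titled CT-26 library also took the adjusted p past 0.05. The sets stayed apart each time, so the limit given for the middle part applies here too. The proximal part took about the same share in both sets, 51.6% ± 1.25 in titled CT-26 and 52.7% ± 0.343 in titled control (SD, n = 4 each, exact permutation test, adjusted p = 0.171). The difference for that part was -1.14 points.

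Clonotypes whose IGKV lies opposite to Igkc, which join by inversion, made up 78.3, 78.4, 82.0 and 80.2% in titled CT-26, against 75.1, 75.8, 67.3 and 74.3% in titled control. The sets did not overlap, and the difference was 6.60 points (exact permutation test, adjusted p = 0.0381). It was 4.65 points without titled control 3 (exact test, adjusted p = 0.0571), and the call was also lost without titled CT-26 1, 3 or 4. Because the sets stayed apart each time, these losses do not show that the difference depends on a single library. Orientation and position are bound together in this locus, since most middle genes are opposite and most distal genes are not. Read from the bases, the clonotype differences were smaller, 3.70 points for the middle part and -2.81 for the distal part, with adjusted p = 0.0762 in the exact test. Weighted by reads and read from the bases, they were larger, 10.8 points for the middle part and -6.82 for the distal part (exact test, adjusted p = 0.0286), and the difference of the proximal part was then -3.97 points (adjusted p = 0.0286).

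**Figure D1:**
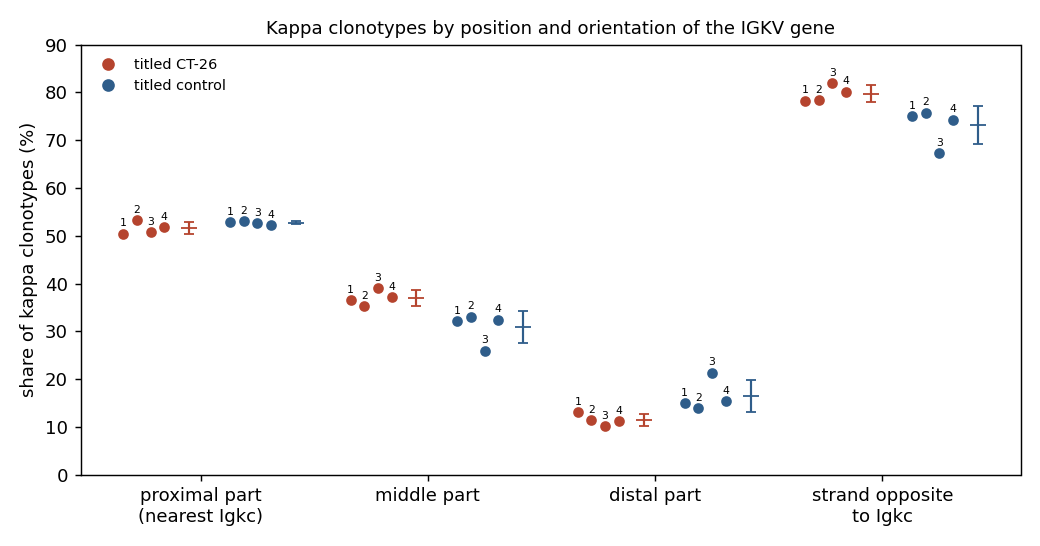
Share of kappa clonotypes (%, y axis) in the proximal, middle and distal part of the IGKV genes and on the strand opposite to Igkc, with 1 numbered point per library and mean ± SD bars (n = 4 per set). The 4 titled CT-26 libraries lie above the titled control libraries in the middle part and below them in the distal part, and titled control 3 lies farthest from the rest.

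IGKV genes fall into families by sequence, and the second comparison took the families as units. The clonotype numbers of 18 families were compared by the quasi-likelihood test of edgeR, and 6 differed at an adjusted p under 0.05, or 33.3%. Of these, 2 were higher in titled CT-26 and 4 were lower. IGKV8, whose 10 positioned genes all lie in the proximal part, held 25.1, 27.0, 28.0 and 28.9% of clonotypes in titled CT-26, against 22.2, 22.4, 15.9 and 20.3% in titled control. No library of one set reached the other, and the log2 fold change was 0.43 (SE 0.11, edgeR adjusted p = 0.010). IGKV4, with 31 of its 32 positioned genes in the middle part, held 35.3, 34.3, 38.0 and 36.2% in titled CT-26, against 30.8, 31.8, 24 and 31% in titled control. The sets did not overlap (log2 0.29, edgeR adjusted p = 0.034), but the call was lost with TMM scaling (adjusted p = 0.069) and with titled CT-26 1, 3 or 4 or titled control 4 left out (up to 0.089).

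The family IGKV6, whose 9 positioned genes lie in the proximal part, fell. It held 7.55, 9.01, 7.72 and 7.23% of clonotypes in titled CT-26, against 13.0, 12.8, 17.3 and 13.2% in titled control. No library of one set reached the range of the other (log2 -0.83, edgeR adjusted p = 0.00061). IGKV1, with 10 of 12 positioned genes in the distal part, was lower as well, at 5.85 to 8.16% in titled CT-26 and 9.35 to 13.6% in titled control (log2 -0.66, edgeR adjusted p = 0.0067). The small families IGKV10 (log2 -0.92) and IGKV17 (log2 -1.51) were also lower, each with an edgeR adjusted p of 0.0067. Among families that did not pass the test, IGKV12 held 8.10% ± 0.933 in titled CT-26 and 8.72% ± 0.495 in titled control (SD, n = 4 each).

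**Figure D2:**
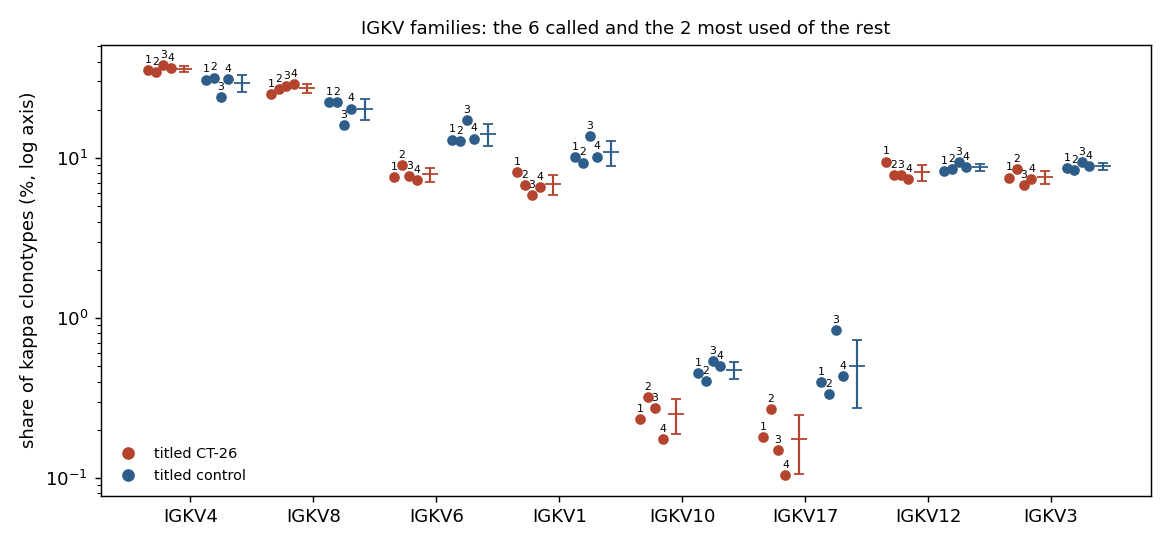
Share of kappa clonotypes (%, log y axis) of the 6 IGKV families that differed between the sets and the 2 most used of the rest, with 1 point per library and mean ± SD bars (n = 4 per set). IGKV6 lies between 7.23 and 9.01% in titled CT-26 and between 12.8 and 17.3% in titled control.

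Single segments were then tested. Of 102 IGKV segments that averaged 10 clonotypes or more, 21 differed between the sets (20.6%), 6 higher (5.88%) and 15 lower (14.7%) in titled CT-26. The median log2 fold change over the 102 was -0.29. Scaling by TMM moved that median up by 0.26 and gave 12 higher and 11 lower, and DESeq2 gave 17 higher and 13 lower. No segment called here changed sign under either. Sets that did not overlap were found for 30 segments (29.4%), 20 of them among the 21 called (19.6% of those tested).

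The most used segment was IGKV8-30 (chr6:70094045-70094604, minus strand), with 13.5, 14.4, 15.7 and 17.1% of clonotypes in titled CT-26, against 11.3, 11.1, 7.30 and 9.66% in titled control. Every titled CT-26 library was higher, and the log2 fold change was 0.63 (SE 0.15, edgeR adjusted p = 0.0105). IGKV4-91 (chr6:68745539-68746087, minus strand), the outermost gene of the middle part, held 6.93, 7.43, 8.90 and 6.90% in titled CT-26, against 4.06, 4.81, 2.21 and 4.13% in titled control. It was higher in every titled CT-26 library (log2 0.99, SE 0.21, edgeR adjusted p = 0.0071). IGKV8-21 (chr6:70291879-70292456, minus strand) held 5.59, 5.69, 5.07 and 5.59% in titled CT-26, against 3.68, 4.08, 2.43 and 3.47% in titled control. Its log2 fold change was 0.68 (edgeR adjusted p = 0.0085).

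IGKV4-86 (chr6:68887395-68887957, minus strand) held 2.90, 2.44, 1.59 and 2.47% in titled CT-26, against 1.28, 1.36, 0.717 and 1.33% in titled control. It had the largest rise of the called segments (log2 1.0, edgeR adjusted p = 0.0085). IGKV4-53 was higher too, at 3.08 to 4.19% in titled CT-26 and 2.03 to 2.76% in titled control (log2 0.52, edgeR adjusted p = 0.021), a call lost without titled CT-26 3 (adjusted p = 0.060). IGKV2-137, the segment farthest from Igkc at 3170.2 kb, held 1.41% ± 0.276 in titled CT-26 and 0.981% ± 0.084 in titled control (SD, n = 4 each). Its log2 fold change was 0.52, and the call (edgeR adjusted p = 0.045) was lost when any of 6 of the 8 libraries was left out, with adjusted p-values of up to 0.114.

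The rises sat in IGKV4, IGKV8 and IGKV2, with 3, 2 and 1 segments called. Of the 6 most used segments 5 were called, 3 higher and 2 lower. The one not called was IGKV4-59, the second most used, with 6.21, 5.45, 6.35 and 6.09% in titled CT-26, against 6.15, 6.55, 4.95 and 5.82% in titled control. These sets overlapped, and the log2 fold change was 0.04 (SE 0.13, edgeR adjusted p = 0.848).

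Among the falls, IGKV6 stood out with 6 of its 10 tested segments lower and none higher. IGKV6-15 (chr6:70383453-70383976, minus strand), a heavily used proximal gene, held 3.22, 4.72, 3.04 and 2.69% in titled CT-26, against 6.18, 5.43, 6.74 and 5.82% in titled control. These sets were fully apart (log2 -0.82, SE 0.17, edgeR adjusted p = 0.0071). IGKV6-23 (chr6:70237393-70237939, minus strand) held 1.46, 1.28, 1.69 and 1.05% in titled CT-26, against 2.72, 2.61, 3.77 and 2.96% in titled control. Its log2 fold change was -1.14 (edgeR adjusted p = 0.0035). IGKV6-20 held 0.510 to 0.845% in titled CT-26 and 1.03 to 2.32% in titled control (log2 -1.13), with titled control 3 highest. IGKV6-14 was also lower by name (log2 -1.31), but only 14.0% of its reads began with its own germline bases, and read from the bases it was not called. These IGKV6 genes lie in the same part and on the same strand as the IGKV8 genes that rose.

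The distal part held 7 lower segments of 27 tested and 1 higher. IGKV17-121 (chr6:68013796-68014302, plus strand) had the largest fall of all called segments, with 0.0795, 0.0890, 0.0668 and 0.0547% of clonotypes in titled CT-26, against 0.236, 0.179, 0.430 and 0.227% in titled control (log2 -1.88, edgeR adjusted p = 0.0035). IGKV1-110 (chr6:68247469-68248251, plus strand) was the most used of the distal falls after IGKV1-117, at 2.25 to 3.11% in titled CT-26 and 3.72 to 5.45% in titled control (log2 -0.81). IGKV1-117 held 2.49 to 3.38% in titled CT-26 and 3.82 to 5.76% in titled control (log2 -0.62, edgeR adjusted p = 0.0145), a call that was lost with TMM, with DESeq2 and when read from the bases. IGKV1-99 (log2 -1.38), IGKV12-98 (log2 -1.28), IGKV14-111 (log2 -1.21) and IGKV10-96 (log2 -1.13) each held under 0.5% in every library and did not overlap between the sets. Of these, IGKV12-98 was not called when read from the bases by clonotypes (adjusted p = 0.075). In the middle part, 3 segments were higher and 1, IGKV5-48, was lower, of 35 tested. The proximal part had 2 higher and 7 lower of 37.

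**Figure D3:**
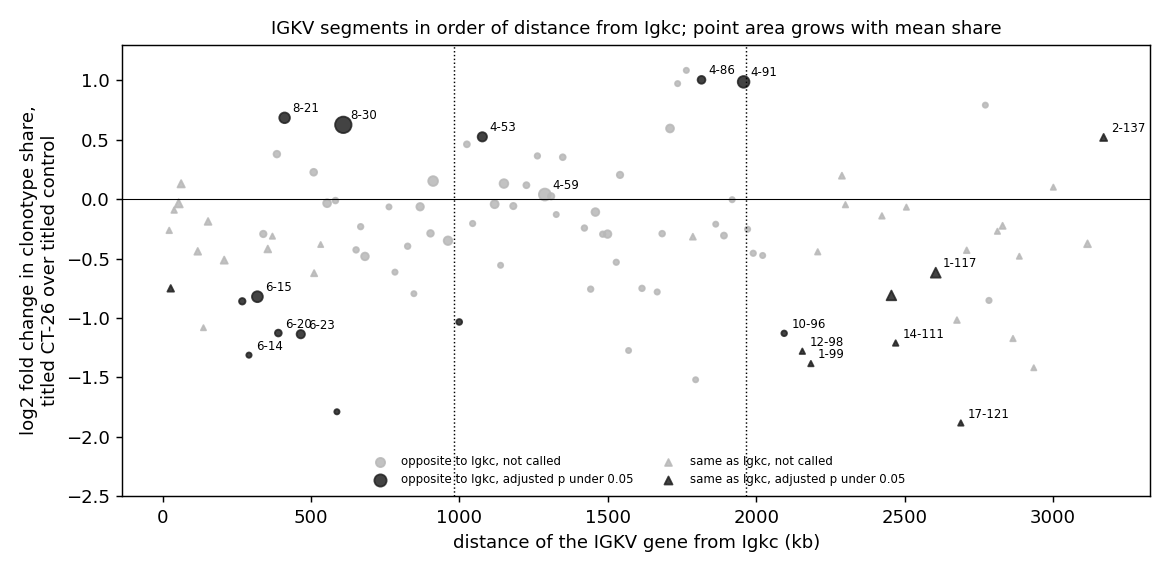
Log2 fold change in clonotype share, titled CT-26 over titled control (y axis), of IGKV segments by distance from Igkc (kb, x axis), where circles are opposite to Igkc and triangles in the same orientation, dark points passed the edgeR test and dotted lines mark the borders of the parts. The rises lie at IGKV8-30, IGKV8-21, IGKV4-53, IGKV4-86, IGKV4-91 and IGKV2-137, while the distal triangles lie mostly below 0.

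The third comparison concerned the joining segments. By name, no IGKJ share passed the test. IGKJ5, the joining segment nearest Igkc, held 27.8, 28.8, 26.5 and 28.7% of clonotypes in titled CT-26, against 26.8, 26.0, 26.2 and 26.5% in titled control. Only titled CT-26 3 fell within the range of the titled control libraries, and the difference was 1.53 points (exact permutation test, adjusted p = 0.343). IGKJ2 held 28.6, 28.5, 32.9 and 30.0% in titled CT-26, against 31.5, 32, 30.9 and 31.9% in titled control, with titled CT-26 3 above all of them (adjusted p = 0.457 in the exact test). IGKJ1 averaged 26.7% ± 1.53 in titled CT-26 and 26.9% ± 0.755 in titled control (SD, n = 4 each, exact permutation test, adjusted p = 0.914). IGKJ4 averaged 15.4% ± 1.18 in titled CT-26 and 15.2% ± 0.279 in titled control (SD, n = 4 each, exact test, adjusted p = 0.914).

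Read from the last 9 bases, among entries that also matched a germline IGKV start, IGKJ5 and IGKJ2 parted between the sets. These entries are a minority of clonotypes. IGKJ5 held 28.8 to 29.4% of clonotypes in titled CT-26 and 26.5 to 27.5% in titled control, and IGKJ2 held 27.3 to 30.0% in titled CT-26 and 30.6 to 31.8% in titled control. Neither overlapped, but the adjusted p was 0.0571 for both in the exact test. Sets without overlap already give the smallest p this test allows, 0.0286. After adjustment over the 4 segments, IGKJ5 and IGKJ2 alone could not pass. Weighted by reads, IGKJ5 held 36.7 to 37.8% in titled CT-26 and 30.8 to 32.3% in titled control, a difference of 5.53 points, again with an adjusted p of 0.0571 in the exact test. Of the reads with an IGKJ5 end, 89.1% were also named IGKJ5, the lowest share of the 4 segments. A limit applies to this reading, because an IGKV gene that ends in ct can itself supply the first bases of an IGKJ5-like end.

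Joining use differed between the parts of the locus in every library. IGKV4 supplies 31 of the 40 genes of the middle part, so position and family are bound together there, and neither was tested as the source. Not every gene followed its part: IGKV12-89, a middle gene, had the highest IGKJ1 share of the 43 segments compared below (58.5%). IGKJ1, the joining segment nearest the IGKV genes, took 15.3, 14.8, 16.4 and 18% of middle-part clonotypes in titled CT-26 and 16.3, 16.8, 18.4 and 17.6% in titled control. In the distal part it took 31.0 to 36.5% in titled CT-26 and 34.5 to 35.4% in titled control, and in the proximal part 28.4 to 34.6% in titled CT-26 and 29.9 to 30.4% in titled control. The middle part was thus the low one for IGKJ1 in all 8 libraries. IGKJ5 was the reverse, with 30.5 to 33.8% of middle-part clonotypes in titled CT-26 and 31.6 to 33.1% in titled control. Of distal clonotypes it took 21.8 to 23.2% in titled CT-26 and 19.9 to 21.3% in titled control.

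A further comparison asked whether distal genes pair with other joining segments than proximal genes. IGKJ5 was less used by distal than by proximal genes in 8 of 8 libraries, with differences of -2.41, -6.26, -2.30 and -2.63 points in titled CT-26 and -3.28, -4.29, -4.16 and -4.83 points in titled control. The mean difference was -3.77 points (exact sign-flip permutation test over all sign assignments, p = 0.00781, the smallest it allows, adjusted p = 0.0313). Read from the bases it was -1.51 points (exact sign-flip test, adjusted p = 0.234) by clonotypes and -7.84 points (adjusted p = 0.0156 in that test) by reads. By name and with 1 library left out, the difference ran from -3.98 to -3.42 points. Leaving out any library but titled CT-26 4 took the adjusted p to 0.0625. All 8 differences were below 0, so with any library left out the sign-flip test gave the smallest p it then allows. Without titled CT-26 4 the IGKJ4 difference reached that p as well, and the adjusted p was 0.0312. These adjusted p-values therefore cannot show whether the difference depends on a single library. The differences for IGKJ1 (3.05 points), IGKJ2 (1.63) and IGKJ4 (-0.916) had adjusted p-values of 0.115, 0.266 and 0.115 in the exact test. Between the sets, none of the 4 distal-minus-proximal differences passed the exact permutation test (adjusted p from 0.514 to 0.800).

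**Figure D4:**
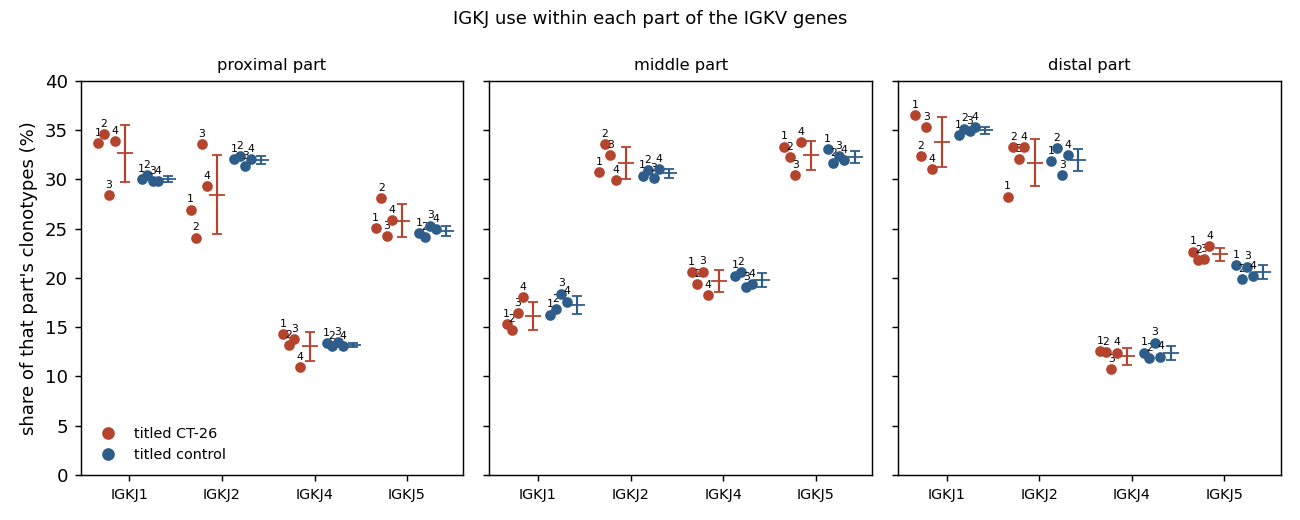
Share of each part's kappa clonotypes (%, y axis) joined to IGKJ1, IGKJ2, IGKJ4 and IGKJ5 by name, 1 panel per part, with 1 point per library and mean ± SD bars (n = 4 per set). In the middle part IGKJ1 lies between 14.8 and 18.4% and IGKJ5 between 30.5 and 33.8% over the 8 libraries, while in the distal part IGKJ1 lies between 31.0 and 36.5%.

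Each IGKV had its own joining profile. Over the 43 segments with a mean share above 0.5%, IGKJ1 took from 2.64% of clonotypes (IGKV4-91) to 58.5% (IGKV12-89), and IGKJ4 from 7.22% (IGKV12-89) to 61.2% (IGKV4-58). IGKV4-58 with IGKJ4 was 4.04 times as common as the product of the 2 shares gives, with a range of 3.24 to 4.78 over the 8 libraries. It was the highest ratio of the 89 pairs with a mean share above 0.3%.

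Of 313 IGKV-IGKJ pairs tested, 46 differed (14.7%), 13 higher (4.15%) and 33 lower (10.5%) in titled CT-26. The count fell to 17 without titled control 3. TMM gave 28 higher and 17 lower, and DESeq2 31 higher and 23 lower. Sets that did not overlap were found for 72 pairs (23%). By joining segment, IGKJ1 pairs had 3 higher and 7 lower of 77, IGKJ2 pairs 4 and 13 of 88, IGKJ4 pairs 2 and 6 of 66, and IGKJ5 pairs 4 and 7 of 82.

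IGKV8-21 with IGKJ5 held 1.88, 1.16, 1.18 and 1.58% of clonotypes in titled CT-26, against 0.645, 0.711, 0.557 and 0.702% in titled control. All titled CT-26 libraries were higher, and the call held with each library left out (log2 1.15, SE 0.19, edgeR adjusted p = 0.0066). The other pairs named higher were rarer. IGKV4-86 with IGKJ1 held 0.103, 0.114, 0.645 and 0.0930% in titled CT-26, against 0.0351, 0.0366, 0.0259 and 0.0295% in titled control, with titled CT-26 3 far above the rest. Its log2 fold change was 2.90, and 1.70 to 3.17 with 1 library left out, with the call lost without titled control 3 (edgeR adjusted p = 0.062). IGKV4-83 with IGKJ2 (log2 2.83), IGKV4-50 with IGKJ4 (log2 1.77) and IGKV8-34 with IGKJ4 (log2 1.16) were also higher, and each lost the call when some single libraries were left out.

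On the lower side, IGKV17-121 fell with IGKJ2 (log2 -2.0, edgeR adjusted p = 0.013) and with IGKJ5 (log2 -1.94), the second of which was lost with any of 5 libraries left out. IGKV4-58 with IGKJ1 held 0.00701, 0.0111, 0.0334 and 0.0109% in titled CT-26, against 0.0741, 0.0569, 0.0743 and 0.0884% in titled control (log2 -2.22, edgeR adjusted p = 0.018), while IGKV4-58 as a whole had a log2 fold change of 0.12 (adjusted p = 0.678). With 35968 to 42782 clonotypes per titled CT-26 library, the shares of that pair there rest on few clonotypes. IGKV6-14 with IGKJ5 (log2 -1.87) lost its call with any of 7 of the 8 libraries left out.

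The largest fall of a called pair was IGKV8-34 with IGKJ2, shown at the opening with its CDR3. IGKV8-34 (chr6:70021096-70021662, minus strand) is a proximal gene, and the closer description of it was chosen after its values were seen. With IGKJ2 it held 0.11, 0.339, 0.170 and 0.109% of clonotypes in titled CT-26, against 1.5, 1.56, 0.792 and 1.31% in titled control. The lowest titled control library was above the highest titled CT-26 library, and the log2 fold change was -2.83 (SE 0.37, edgeR adjusted p = 0.0023). With 1 library left out it ranged from -3.31 to -2.65, with adjusted p-values of at most 0.0112.

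The same was seen when both segments were read from the bases, so it does not rest on names. IGKV8-34 reads with the IGKJ2 end were 0.0498, 0.209, 0.0693 and 0.0440% of kappa reads in titled CT-26, against 1.92, 1.97, 0.953 and 1.61% in titled control, which is 17.3 times as much in titled control. With the other joining segments the means ran the other way. With IGKJ5 they were 0.594% in titled CT-26 and 0.369% in titled control. With IGKJ1 they were 0.296% in titled CT-26 and 0.129% in titled control, and with IGKJ4 0.187% in titled CT-26 and 0.104% in titled control. Only the IGKJ4 values did not overlap among these 3. IGKV8-34 as a whole had a log2 fold change of -0.48 by clonotypes, with overlapping sets (edgeR adjusted p = 0.176).

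Most of these reads belonged to a single sequence without added bases, the IGKV8-34 sequence with the IGKJ2 end printed above. Under any name it took 0.0490, 0.205, 0.0668 and 0.0427% of kappa reads in titled CT-26, against 1.84, 1.90, 0.926 and 1.54% in titled control. Tested by its amino acid sequence alone, the log2 fold change was -4.09 (SE 0.55, edgeR adjusted p = 0.0018). The sequence that ends in IGKJ5 took 0.310, 0.720, 0.591 and 0.564% in titled CT-26, against 0.275, 0.281, 0.199 and 0.303% in titled control. This one was higher in every titled CT-26 library, and it differs from the other only in the joining end.

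**Figure D5:**
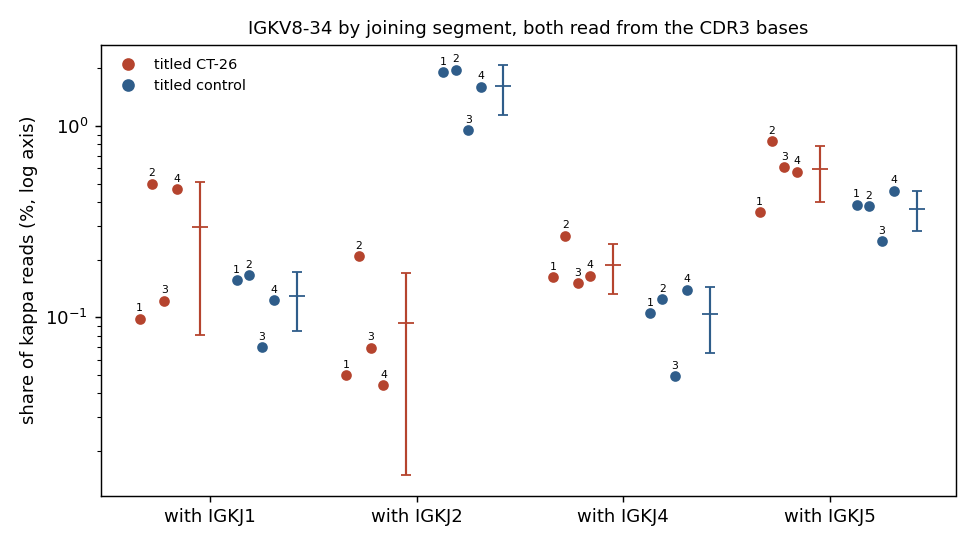
Share of kappa reads (%, log y axis) of IGKV8-34 with each joining segment, both read from the CDR3 bases, with 1 numbered point per library and mean ± SD bars (n = 4 per set). With IGKJ2 the titled CT-26 libraries lie between 0.0440 and 0.209% and the titled control libraries between 0.953 and 1.97%, while with IGKJ5 the titled CT-26 mean is the higher one.

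CDR3 length was counted in amino acids from the conserved cysteine to the phenylalanine, as the tables list it. Of the entries 78.2 to 80.3%, and of the reads 96.3 to 97.1%, had both residues at their ends. Most kappa clonotypes had 11, at 79.3, 78.2, 79.7 and 78.4% in titled CT-26, against 80.1, 80.0, 81.1 and 80.0% in titled control. The mean length was 10.88 ± 0.0179 in titled CT-26 and 10.92 ± 0.0049 in titled control (SD, n = 4 each), without overlap (exact permutation test, adjusted p = 0.0286). Without any 1 of the titled control libraries the adjusted p was 0.0571 in the exact test. The sets stayed apart there too, so this does not show that the difference depends on a single library. Clonotypes of length 10 made up 12.7, 14.0, 14.6 and 16.1% in titled CT-26, against 12.4, 12.4, 11.5 and 12.4% in titled control. Length 13 was less frequent in titled CT-26, at 0.523 to 0.815%, against 1.04 to 1.2% in titled control. Length followed the IGKV, with length 10 in 77.9% of IGKV8-21 clonotypes and 16.3% of IGKV8-30 clonotypes. The share of length 11 was higher, not lower, in titled CT-26 when segments were read from the bases (difference 8.49 points), so no direction is drawn from it.

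Kappa CDR3s were widely shared. Of 137027 amino acid sequences, 2880 (2.10%) were listed in all 8 libraries, and these held 88.2% of all reads. In contrast, 106604 sequences (77.8%) appeared in 1 library and held 3.73% of reads. A shared sequence was encoded by a median of 6 nucleotide sequences over the 8 libraries, and by up to 97. Sequences made wholly of germline IGKV and IGKJ bases held 65.0 to 68.6% of reads in titled CT-26 and 68.7 to 71.6% in titled control. The 10 most read sequences held 20.1% of reads. Sequences of all 8 libraries took 88.0% ± 0.329 of reads in titled CT-26 and 88.3% ± 0.471 in titled control (SD, n = 4 each, exact permutation test, adjusted p = 0.257). By clonotypes they took 36.7, 39.2, 38.0 and 38.4% in titled CT-26, against 36.7, 36.2, 34 and 36.3% in titled control (exact permutation test, adjusted p = 0.0571), and with equal reads drawn from each library the difference turned to -1.79 points. Before adjustment the exact p by clonotypes was 0.0286, the smallest the test allows, so this share could not pass alone.

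Single CDR3s were tested on reads. With IGKV and IGKJ names kept, 229 of 1989 differed (11.5%), 45 higher (2.26%) and 184 lower (9.25%) in titled CT-26. DESeq2 gave 222 higher and 241 lower, and TMM 111 and 160. On the amino acid sequence alone, chosen after the naming of entries was seen, 311 of 1592 differed (19.5%), 98 higher (6.16%) and 213 lower (13.4%). The sets did not overlap for 304 of the 311 (19.1% of those tested). Over all tested, they did not overlap for 500 of 1592 (31.4%), and with names kept for 523 of 1989 (26.3%). DESeq2 gave 235 and 241 there, and TMM 175 and 180. Both counts depended on single libraries: they ran from 115 to 354 with names and from 157 to 322 without, with 1 library left out. Among the sequences called lower, 91 of 213 were 1 base from a sequence with at least 5 times the reads, against 69 of 98 among those called higher and 929 of 1592 in all, so a share of the calls are near copies of others.

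The most read CDR3s were joins of IGKV8-30, IGKV6-15, IGKV4-91 and IGKV4-53 without added bases. They are shown with the bases past the germline IGKV in capitals. The IGKJ given is the one whose germline end matches the most bases of the CDR3 end. In the IGKV6-15 and IGKV4-53 sequences, germline IGKV bases supply part of that match. The capitals of the IGKV6-15 sequence also end IGKJ2 and IGKJ4, and those of the IGKV4-53 sequence also end IGKJ1, IGKJ2 and IGKJ4. For these sequences the IGKJ5 label is therefore not certain.
IGKV8-30 with IGKJ2: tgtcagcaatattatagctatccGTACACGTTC
IGKV8-30 with IGKJ5: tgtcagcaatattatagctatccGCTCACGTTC
IGKV8-30 with IGKJ1: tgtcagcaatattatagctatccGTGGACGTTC
IGKV8-30 with IGKJ1, shortened end: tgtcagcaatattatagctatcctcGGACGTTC
IGKV6-15 with IGKJ5: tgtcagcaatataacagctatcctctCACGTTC
IGKV4-91 with IGKJ5: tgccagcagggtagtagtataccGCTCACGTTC
IGKV4-53 with IGKJ5: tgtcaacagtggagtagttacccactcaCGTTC

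Reads are given here for the amino acid sequence that each encodes, under any name. The IGKV4-91 sequence with IGKJ5 took 2.93, 2.62, 4.51 and 3.41% of kappa reads in titled CT-26, against 1.51, 1.92, 0.833 and 1.58% in titled control. The sets did not overlap (log2 1.2, SE 0.27, edgeR adjusted p = 0.0158). The IGKV4-53 sequence took 3.18, 2.81, 3.36 and 2.50% in titled CT-26, against 1.74, 1.80, 1.21 and 1.69% in titled control (log2 0.88, SE 0.17, edgeR adjusted p = 0.0077). The IGKV8-30 sequence with the shortened IGKJ1 end was higher as well (log2 0.82, edgeR adjusted p = 0.021).

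The other IGKV8-30 sequences did not pass the test, though 2 of them did under other scalings. With IGKJ5 the sequence took 2.78, 3.13, 2.68 and 2.92% in titled CT-26, against 2.18, 2.42, 1.40 and 2.10% in titled control. Every titled CT-26 library was above every titled control library (log2 0.51, edgeR adjusted p = 0.066), and the test was passed with TMM (adjusted p = 0.0197) and DESeq2 (adjusted p = 0.0114). With IGKJ2 the sequence took 3.11, 2.51, 4.39 and 3.59% in titled CT-26, against 2.49, 2.71, 1.47 and 2.21% in titled control (log2 0.62, edgeR adjusted p = 0.080), and it passed with TMM (adjusted p = 0.032), with DESeq2 (adjusted p = 0.031) and without titled CT-26 2 (adjusted p = 0.047). With IGKJ1 it took 2.15% ± 0.458 in titled CT-26 and 2.04% ± 0.476 in titled control (SD, n = 4 each, log2 0.08). The IGKV6-15 sequence took 1.04, 2.39, 0.962 and 0.813% in titled CT-26, against 2.62, 2.29, 3.29 and 2.52% in titled control. Only titled CT-26 2 reached into the titled control range, and the adjusted p was 0.052 in the edgeR test (log2 -1.04).

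Rises were ranked only among called sequences listed in all 8 libraries. Of the 4 sequences named for the largest rises, 2 were far higher in 1 library than in the rest. An IGKV4-86 sequence named with IGKJ1 took 0.790% of reads in titled CT-26 3, against 0.00684 to 0.0229% in the other titled CT-26 libraries and 0.00212 to 0.00676% in titled control (log2 5.69, edgeR adjusted p = 0.038). Its call was lost with any of 5 of the 8 libraries left out, and without titled CT-26 3 the log2 fold change was 1.77 (adjusted p = 0.063 in the edgeR test). An IGKV8-21 sequence with IGKJ5 took 0.562, 0.0406, 0.101 and 0.0116% in titled CT-26, against 0.00888 to 0.0302% in titled control (log2 3.54, edgeR adjusted p = 0.048). This call was lost with any of 6 libraries left out, and without titled CT-26 1 the log2 fold change was 1.73 (adjusted p = 0.113 in the edgeR test). A sequence with an IGKV9-123 start took 0.0102 to 0.0241% in titled CT-26 and 0.000205 to 0.00409% in titled control (log2 3.43), without overlap, a call lost without titled control 1 (edgeR adjusted p = 0.056). A further IGKV8-30 sequence with the IGKJ1 end took 0.00493 to 0.0450% in titled CT-26 and 0.00178 to 0.00522% in titled control (log2 2.93), a call lost without titled control 1, 3 or 4 (edgeR adjusted p of up to 0.081).

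Falls were ranked in the same way, among called sequences listed in all 8 libraries. Of the 4 sequences with the largest falls there, 3 were variants of the IGKV8-34 sequence with the IGKJ2 end, each 1 base from it, and so are not separate results. The remaining one, named IGKV4-69 with IGKJ2, took 0.000274 to 0.000683% in titled CT-26, which is 1 or 2 reads per library, and 0.00595 to 0.0144% in titled control (log2 -4.57, edgeR adjusted p = 0.0014). With names kept, 102 of the 184 sequences called lower were listed in all 8 libraries. The largest fall among these was a sequence named IGKV4-86 with IGKJ2 (log2 -6.94). Its nucleotide sequence under any name took 0.654, 0.00203, 0.0194 and 0.0912% in titled CT-26, against 0.229, 0.239, 0.130 and 0.243% in titled control, so these sets overlapped. On the amino acid sequence alone its log2 fold change was -0.19 (edgeR adjusted p = 0.913).

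Diversity was compared at 292851 reads per library. The number of clonotypes was 36208, 35682, 36490 and 36560 in titled CT-26, against 36149, 36328, 35850 and 37236 in titled control (exact permutation test, adjusted p = 0.743). With clonotypes of at least 2 reads it was 8650 to 8977 in titled CT-26 and 9446 to 9842 in titled control, and with near copies joined 12665 to 13650 in titled CT-26 and 10820 to 11871 in titled control. Both differences passed the exact permutation test (adjusted p = 0.0286) in opposite directions, so no direction is drawn. Clonality, which is 1 minus the normalised Shannon entropy, was 0.320, 0.320, 0.322 and 0.319 in titled CT-26, against 0.305, 0.309, 0.301 and 0.301 in titled control. The sets did not overlap, and the difference was 0.0164 (exact permutation test, adjusted p = 0.0571). Before adjustment the exact p was 0.0286, the smallest the test allows, so clonality could pass only together with clonotype number.

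In the RNA libraries of the same titles, Igkc had 23080 ± 5137 CPM in titled CT-26 and 32220 ± 4543 CPM in titled control (SD, n = 4 each, log2 -0.48, edgeR adjusted p = 0.157). Ms4a1, which encodes the B cell surface protein CD20, had 24.5 to 53.3 CPM in titled CT-26 and 471.3 to 642.6 CPM in titled control (log2 -3.93). Of 26 genes listed for kappa rearrangement, 15 were tested, 8 were lower and none higher, where 21.6% of all genes tested were lower. The falls included the B cell transcription factors Spib (log2 -1.73), Ikzf3 (log2 -2.10), Irf8 (log2 -1.15) and Rel (log2 -1.26). Rag1 and Rag2, the recombinase genes, had 0 counts in every library, which allows up to 3 counts per library. Of 8 plasma cell markers, 3 were tested and 1 was lower, Jchain, the joining chain of polymeric antibody (464.2 ± 68.3 CPM in titled CT-26 and 675.2 ± 116.6 CPM in titled control, SD, n = 4 each, log2 -0.54, edgeR adjusted p = 0.037). The Jchain call was lost with any of 5 of the 8 libraries left out (adjusted p of up to 0.149), without the filter on low counts (0.121) and without TMM scaling (log2 -0.15, edgeR adjusted p = 0.669).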

How the data were processed

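Per the labels, total RNA of spleen was used for all libraries. The BCR tables hold read counts per assembled entry with V, J and CDR3 names, as deposited by the authors, but no source used here gives the program that made them. The RNA tables hold raw counts per gene with coordinates, made with featureCounts 2.0.1 on GENCODE M29, per the file headers. Trimmomatic 0.39 and STAR 2.7.10a are named in the submitters' processing notes.

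Kappa entries were summed to clonotypes. IGKV segments, families and pairs averaging 10 clonotypes or more entered edgeR 4.0.16 (quasi-likelihood, library size all kappa clonotypes, no TMM, Benjamini-Hochberg at 0.05), and CDR3s on reads after filterByExpr. RNA counts were tested likewise with TMM. Shares were tested with exact permutation tests over 70 assignments, two-sided. Equal reads means 20 draws of 292851 reads. Named were the IGKJ segments, the 6 most used IGKV, and up to 8 called IGKV and 5 called pairs in each direction without overlap. For CDR3s, only those listed in all 8 libraries could be named, the 6 most read and 4 called in each direction. The members and lists were chosen with earlier results of these data known.

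Alternatives were DESeq2 1.42.0, TMM, reads, at least 2 reads, equal reads, no filter, a replicate block and each library left out. Added after the data were seen were near copies joined, names read from bases, and amino acid sequence alone. Near copies joined keeps 1 entry per sequence and drops those 1 base from one with at least 5 times the reads. Python 3.11.15, scipy 1.17.1 and R 4.3.3 were used. In simulated data of 102 segments, 313 pairs and 1989 CDR3s, the test found 12 of 12 segments, 30 of 33 pairs and 37 of 103 CDR3s changed by a log2 of 1. Of those changed by a log2 of 2 it found 8 of 8, 30 of 30 and 94 of 97. False calls numbered 2, 3 and 3. The simulated dispersion was set at 0.01 for segments and pairs and 0.1 for CDR3s, not estimated from these libraries. These counts therefore do not give the power or error of the tests on these data. RNA libraries held 735298 to 1970950 counts. Libraries of a set differed beyond counting noise (chi-square per degree of freedom at least 21.7). Reads carry no molecular identifiers in these tables.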

Additional observations from a re-analysis of the deposited data

Results flagged for a closer look

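Within sets of 4 libraries, 158 groups were examined for a library far from the other 3, and 23 were found by Dixon's criterion, which chance alone meets in about 1 of 20 groups. Titled CT-26 3 had a low IGKJ1 share (24.39%, others 27.34 to 27.61%), a low IGKV8-21 share (5.068%), a high share of the pair IGKV4-86 with IGKJ1 (0.6448%, others 0.0930 to 0.114%) and of IGKV4-58 with IGKJ1 (0.03339%). The same library had high reads of 2 CDR3s, the shortened IGKV8-30 sequence named with IGKJ4 (0.4367%) and the IGKV4-86 sequence named with IGKJ1 (0.7899%). Under any name, the shortened IGKV8-30 nucleotide sequence took 0.558% there and 0.129 to 0.292% in the other titled CT-26 libraries.

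Titled control 3 had the lowest middle part share of its set (25.95%, others 32.19 to 33.07%), with low IGKV4 (23.96%) and IGKV4-86 (0.7175%), high IGKV6 (17.28%) and IGKV6-20 (2.318%), and a high share of length 11 (81.06%). Its CDR3s set apart were IGKV8-30 with IGKJ1 by name (0.3374% of reads, others 2.02 to 2.36%), the sequence named IGKV4-86 with IGKJ2 (0.1242%) and the IGKV9-123 sequence (0.004086%). The first of these rests in part on naming. Under any name its nucleotide sequence took 1.32% in titled control 3 and 2.03 to 2.39% in the other titled control libraries.

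Titled CT-26 2 was apart in the IGKJ5 share of distal minus proximal genes (-6.258 points), in a short IGKV8-21 CDR3 named with IGKJ4 (0.6482% of reads) and in the IGKV6-15 CDR3 with IGKJ5 (2.386%, others 0.813 to 1.04%). Under any name, the short IGKV8-21 nucleotide sequence took 0.892% there and 0.133 to 0.572% in the other titled CT-26 libraries. Titled CT-26 1 was apart in the IGKV8-21 CDR3 with IGKJ5 (0.5624%). Titled CT-26 4 was apart in a short IGKV8-30 CDR3 named with IGKJ1 (0.005805%) and in the IGKV4-69 CDR3 (0.0006829%). Titled control 1 was apart in a CDR3 named IGKV8-30 with IGKJ5 that begins with IGKV6-20 bases (0.1489%), and titled control 2 in the IGKV8-30 CDR3 with the IGKJ1 end and 14 bases past the germline start (0.005224%). Under any name, the sequence with IGKV6-20 bases took 0.177% in titled control 1 and 0.440% in titled control 3, so titled control 1 was apart only by name.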

How the results depend on the processing

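Counts of differing features moved most for CDR3s. With names the count was 463 with DESeq2 and 11 with the replicate block. It was 51 without the filter, where many more sequences were tested than the 1989 of the main setting. For amino acid sequences alone it was 476 with DESeq2 and 136 with the block. Pairs numbered 27 with the block. When IGKV was read from the bases they numbered 13, but far fewer pairs were tested than the 313 of the main setting. The counts of these 2 settings are therefore not directly comparable. Read from the bases, 9 of the called pairs were higher and 4 lower, against 13 higher and 33 lower in the main setting. Families numbered 10 by reads, 10 by start and 11 by start with reads. With 1 library left out the counts ran from 17 to 24 for segments, 5 to 7 for families, 17 to 36 for pairs, 115 to 354 for CDR3s with names, 157 to 322 for amino acid sequences alone and 2511 to 2949 for RNA genes. Replicate numbers shared by the sets did not pair the libraries: deviations of equal numbers correlated at -0.0859 to 0.219, and 3 of 8 libraries correlated best with their own number.

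With the block, the exact test allows no p below 0.125, so the middle part (6.08 points), distal part (-4.94), opposite orientation (6.60), mean length (-0.0401) and length 11 (-1.41) could not pass. Read from the bases, the middle part was 3.70, the distal part -2.81 and the opposite orientation 3.57 points, no longer past the threshold, and by reads the proximal part passed it (-3.97). IGKJ1 turned to 0.482 points with at least 2 reads and 0.740 by start and end, and IGKJ4 to -0.0646 and -0.483. IGKJ4 distal minus proximal turned to 3.03 by start and end with reads, and that of IGKJ5 weakened to -1.51 by start and end. Mean length lost the call at -0.0372 (at least 2 reads), -0.0382 (equal reads), -0.0459 (near copies joined) and -0.0437 (start and end, reads). Length 11 lost it at -0.403, -1.05, -0.295 and -4.71 in the same settings and turned to 8.49 by start and end. Clonotype number became -837 with at least 2 reads and 1770 with near copies joined, both past the threshold, and clonality passed at 0.0159 and 0.0311. Reads in shared CDR3s turned to 0.115 with at least 2 reads, and clonotypes in them to -1.79 at equal reads. For single features, IGKV4-59 turned to -0.026 by reads, the IGKV8-30 CDR3 named with IGKJ1 to 0.24 (TMM), 0.22 (DESeq2) and 0.18 (block), and Xbp1 to 0.25 (no TMM) and 0.004 (block), all of them uncalled. The causes were not tested.

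With 1 library left out the differences in points ran from -0.501 to 0.573 for IGKJ1, -2.56 to -1.06 for IGKJ2, -0.0745 to 0.779 for IGKJ4, 1.24 to 2.02 for IGKJ5, 4.42 to 6.80 for the middle part, -5.76 to -3.29 for the distal part, -1.69 to -0.761 for the proximal part, 4.65 to 7.49 for the opposite orientation and -1.69 to -1.17 for length 11. Mean length ran from -0.0471 to -0.0325 and clonotype number from -336 to 126. Distal minus proximal ran from 2.50 to 3.90 (IGKJ1), -1.26 to -0.602 (IGKJ4) and -3.98 to -3.42 (IGKJ5). Single features that turned were IGKV4-59 (-0.034 to 0.095), Xbp1 (-0.28 to 0.15) and the IGKV8-30 CDR3 with IGKJ1, by name (-0.37 to 0.17) and alone (-0.076 to 0.17). Limits are the thin entries, names that vary within 1 sequence, fewer kappa reads in titled CT-26 and a C57BL/6 germline.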
